A study of Homo sapiens with 10 samples.

Results

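ABTr4 is 1 clone of PEO1 cells grown resistant to veliparib, an inhibitor of PARP enzymes, and its expression was compared across all genes with that of the parental PEO1 cells. The comparison used 4 of the 10 RNA libraries, 2 of ABTr4 and 2 of PEO1, and the other 6 came from 3 further resistant clones, ABTr1, ABTr2 and ABTr3. PEO1 is an established line of high-grade serous ovarian carcinoma known to lack working BRCA2, and ABTr4 was derived from it. ABTr4 cells (labelled as veliparib resistant) grew under 40 µM veliparib over 6 months and then without it for the last 4 to 5 days before RNA extraction. PEO1 cells (labelled as WT) were the untreated parent. The descriptions of the ABTr4 libraries give another clone number than their titles, and the titles, which match the columns of the count table, were followed here. A single clone cannot separate what resistance changed from what distinguished the founding cell.

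BRCA2 is needed for homologous recombination, which repairs broken DNA from an intact copy. PARP inhibitors kill cells in which that repair is missing. Known routes to resistance include restored recombination, loss of end protection by the 53BP1 and shieldin proteins, protected replication forks and drug efflux. A separate state seen in resistant carcinoma cells is the epithelial to mesenchymal transition, in which ZEB and SNAIL factors shut down cadherin, junction and keratin genes and mesenchymal genes come on. In normal epithelia the GRHL, OVOL and ESRP proteins hold the opposite state.

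ABTr4 replicate 1 and replicate 2 held 46284483 and 30506227 counts, and PEO1 replicate 1 and replicate 2 held 44602090 and 30368855. The table lists 25370 genes, and 16490 of them had enough reads to be tested. In the quasi-likelihood test of edgeR with all 10 libraries, genes with an adjusted p under 0.05 over all tested genes were counted as passing. Between ABTr4 and PEO1, 1602 genes passed (9.71% of those tested), of which 736 were higher (4.46%) and 866 lower (5.25%) in ABTr4. The changes were large, with 206 genes at least 16-fold higher and 178 at least 16-fold lower among them. The median log2 fold change of all tested genes was 0.04. A set of 21 genes had at least 5 CPM (counts scaled to a common library size by edgeR) in both ABTr4 libraries and under 0.5 in both PEO1 libraries, while 42 genes had the reverse.

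Libraries of the same replicate number deviated together, so each result was also computed with the replicate number as a block. With the block 4450 genes passed (27.0%), of which 2159 were higher (13.1%) and 2291 lower (13.9%) in ABTr4. All 1602 genes that passed without the block were among them. The 2848 genes that passed only with the block, of these 2 fits, had a median absolute log2 fold change of 1.09, against 2.42 for the 1602, and 1423 of them were higher and 1425 lower. Without ABTr4 replicate 1, ABTr4 replicate 2 or PEO1 replicate 2, in turn, 505, 459 and 567 genes passed when no block was used, and 2348, 1877 and 3274 with it. Without PEO1 replicate 1 the counts were 1573 and 5042.

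**Figure D1:**
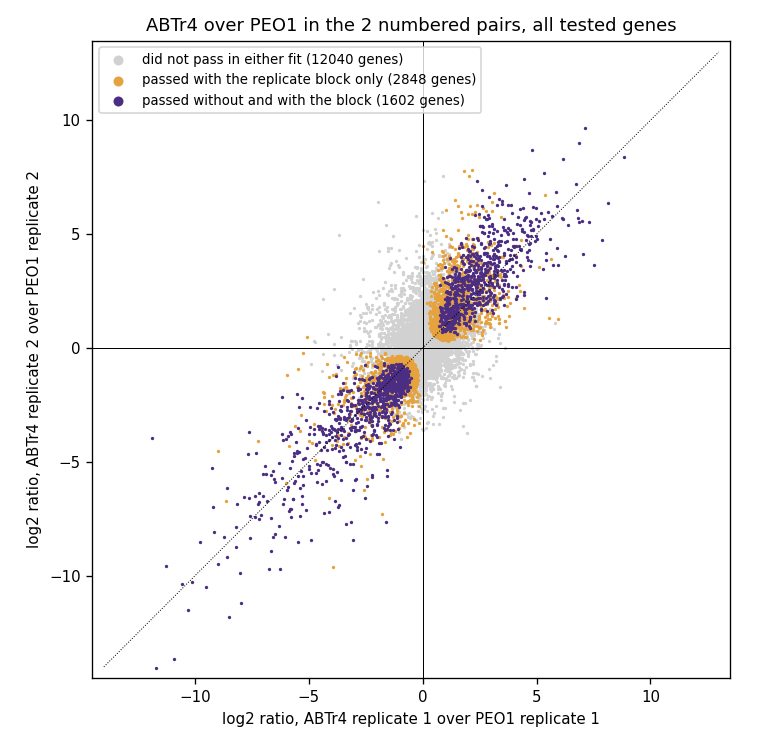
Each point is 1 tested gene, with the log2 ratio of ABTr4 over PEO1 in the replicate 1 libraries on the x axis and in the replicate 2 libraries on the y axis, and the dotted line marks equal ratios. The 1602 genes that passed without and with the block (purple) and the 2848 that passed only with it (orange) lie in the quadrants of equal sign, apart from a few of the orange ones, and the orange genes crowd nearer the centre. Passing itself favours equal signs, and 73.7% of all tested genes had the same sign in both pairs.

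The following 4 are examples from the genes with the smallest adjusted p among those that passed only with the block. LCN2, an iron-binding secreted protein, had 0.129 and 5.14 CPM in ABTr4 replicate 1 and 2, against 73.4 and 550 CPM in PEO1 replicate 1 and 2. Both ABTr4 libraries were far below both PEO1 libraries, but replicate 2 was the higher of each pair, and the log2 fold change reached -6.91 (SE 1.97, adjusted p = 0.062 in edgeR) without and -7.24 (SE 0.53, adjusted p = 3.4e-05 in edgeR) with the block. RNF144B, a ubiquitin ligase, had 3.83 and 14.7 CPM in ABTr4 and 50.1 and 121 CPM in PEO1, a log2 fold change of -3.21 without and -3.39 with the block. GRB7, an adaptor of ERBB receptors, had 9.85 and 35.3 CPM in ABTr4 and 85.7 and 205 CPM in PEO1. CPZ, a carboxypeptidase, had 16 and 36.5 CPM in ABTr4 and 94.2 and 170 CPM in PEO1. In each of the 4 genes the groups did not overlap and the replicate 2 library was the higher one in ABTr4 and in PEO1 alike. The rule by which these genes were chosen favours such a pattern.

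The labels call the cells epithelial, and the markers of that cell type were present in both groups at very different levels. EPCAM, an epithelial surface adhesion protein, had 69.4 and 70.9 CPM in ABTr4 and 544 and 543 CPM in PEO1, and its log2 fold change reached -2.95 (SE 0.27, adjusted p = 0.0020 in edgeR). The keratins KRT7, KRT8, KRT18 and KRT19 each had 386 CPM or more in both ABTr4 libraries, against 1156 CPM or more in both PEO1 libraries. PAX8, a factor of the Mullerian lineage, had 95.2 and 96.1 CPM in ABTr4 and 156 and 92.6 CPM in PEO1, so the groups overlapped. CDH1, which encodes E-cadherin (hg19 chr16:68771195-68869444, plus strand), had 0.043 and 0.216 CPM in ABTr4, which is 9 reads in all, against 147 and 358 CPM in PEO1. Its log2 fold change reached -11.01 (SE 1.47, adjusted p = 0.0046 in edgeR), and by this marker the ABTr4 libraries were nearly empty. In RNA from a whole culture, fewer cells of a type and less RNA per cell cannot be told apart.

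Most tested genes of the epithelial program fell in ABTr4, while 5.25% of all tested genes did (13.9% with the block). Of 14 tested transcription factors and splicing regulators of epithelia 10 fell and 0 rose (13 fell with the block), and their median log2 fold change was -3.95 against 0.04 for all tested genes. GRHL2, which keeps epithelial enhancers open, had 0 and 0.0924 CPM in ABTr4 (3 reads) and 132 and 110 CPM in PEO1 (8170 reads), a ratio of PEO1 to ABTr4 of 3249, whose 95% counting interval ran from 1112 to 15760. OVOL1 and OVOL2, repressors of ZEB1, had 0 reads in ABTr4 and 559 and 2075 reads in PEO1, and with 3 counts over the ABTr4 group as the floor they were at least 222-fold and 825-fold lower in ABTr4. Counting error is all that such intervals and floors cover. EHF, an ETS factor of epithelia, had 0.581 and 1.57 CPM in ABTr4 and 182 and 189 CPM in PEO1 (log2 fold change -7.45, SE 0.54, adjusted p = 0.00067 in edgeR). ESRP1, which directs epithelial splicing, had 0.129 and 0.185 CPM in ABTr4 and 203 and 293 CPM in PEO1 (log2 fold change -10.62, SE 1.69, adjusted p = 0.0087 in edgeR). ESRP2 (-2.63), KLF5 (-3.40), GRHL1 (-4.69) and TFAP2C (-1.95) also fell, all as log2 fold changes. Of the other 4, ELF3, KLF4 and TFAP2A passed only with the block (-4.49, -1.04 and -1.09 on the log2 scale without it) and GRHL3 passed in neither fit. Without ABTr4 replicate 1 or replicate 2 the count of falls was 5 and 6, and TFAP2C did not pass without ABTr4 replicate 1 (log2 fold change -1.83, adjusted p = 0.054 in edgeR).

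Of 18 tested genes of epithelial adhesion and polarity 16 fell and 0 rose (88.9%), with a median log2 fold change of -4.63. CDS1, a lipid enzyme highly expressed in epithelia, had 0.968 and 1.88 CPM in ABTr4 and 141 and 314 CPM in PEO1 (log2 fold change -7.33, SE 0.66, adjusted p = 0.0019 in edgeR). ST14, the membrane protease matriptase, had 12.3 and 21.2 CPM in ABTr4 and 255 and 283 CPM in PEO1 (log2 fold change -4.01, SE 0.37, adjusted p = 0.0020 in edgeR). MAL2, a protein of apical transport, had 19.2 and 42.9 CPM in ABTr4 and 842 and 1004 CPM in PEO1 (log2 fold change -4.89, SE 0.51, adjusted p = 0.0027 in edgeR). In these genes every ABTr4 library was more than an order of magnitude below every PEO1 library. The polarity and sorting genes CRB3 (-7.64), AP1M2 (-6.52), RAB25 (-7.09), LLGL2 (-3.11) and INADL (-3.11), the proteases and inhibitors PRSS8 (-5.36) and SPINT1 (-4.37) and P-cadherin, CDH3 (-3.19), fell as well on the log2 scale. Of the 2 that did not pass, SPINT2 (-1.97) passed with the block and MPP5 (-0.40) did not.

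Tight junctions and desmosomes seal and tie epithelial cells together, and 16 of 22 tested genes of these structures fell (20 with the block) while 0 rose, with a median log2 fold change of -2.38. PKP2, a desmosomal plaque protein, had 20.2 and 19.9 CPM in ABTr4 and 110 and 106 CPM in PEO1 (log2 fold change -2.42, SE 0.24, adjusted p = 0.0022 in edgeR). MARVELD2, the tricellulin of 3-cell contacts, had 1.10 and 1.11 CPM in ABTr4 and 13.8 and 23.2 CPM in PEO1 (log2 fold change -4.06, SE 0.49, adjusted p = 0.0035 in edgeR). CLDN4, a claudin on chromosome arm 7q, had 95.1 and 76.7 CPM in ABTr4 and 438 and 821 CPM in PEO1 (log2 fold change -2.87, SE 0.35, adjusted p = 0.0035 in edgeR). The groups did not overlap in these genes, and in MARVELD2 and CLDN4 the PEO1 libraries lay further apart than the ABTr4 libraries. CLDN7 had the lowest log2 fold change of the list (-6.95), with OCLN at -2.67 and DSP at -2.40, and the members that passed in neither fit were DSG2 (-0.35) and CLDN1 (-0.39). Without ABTr4 replicate 1, ABTr4 replicate 2 or PEO1 replicate 2 the count of falls was 7, 9 and 8.

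**Figure D2:**
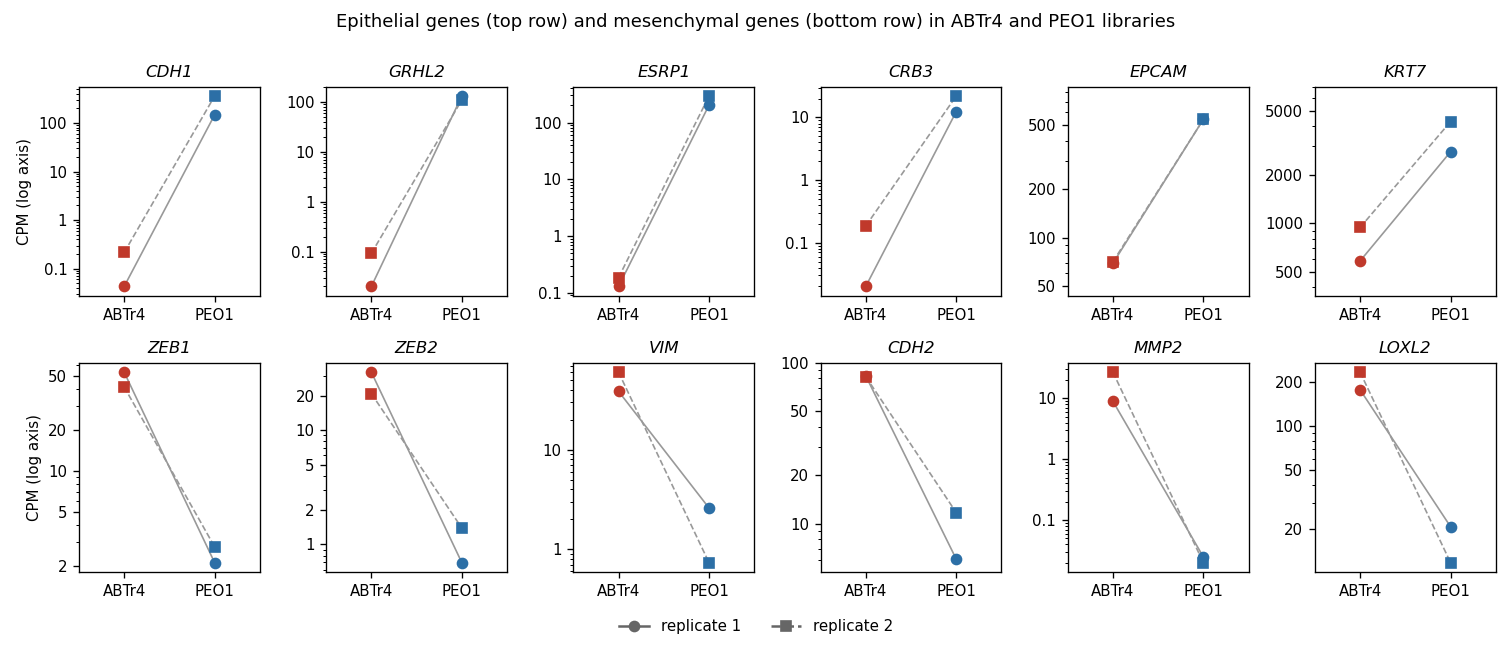
Each panel gives 1 gene in CPM on a log axis, with ABTr4 libraries in red and PEO1 libraries in blue, replicate 1 as circles and replicate 2 as squares, and lines joining libraries of the same number; values under 0.02 CPM are drawn at 0.02. The 6 epithelial genes of the top row are lower, and the 6 mesenchymal genes of the bottom row higher, in both ABTr4 libraries than in either PEO1 library. The genes shown were chosen among those that passed without the block. Of 24 tested mesenchymal adhesion and matrix genes 4 rose, and FN1 and FOXC1, which are not shown, were lower in both ABTr4 libraries.

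Among keratins and other intermediate filaments, 8 of 14 tested genes fell and 2 rose (71.4% passed, against 9.71% of all tested genes). KRT18 had 525 and 389 CPM in ABTr4 and 1691 and 2379 CPM in PEO1 (log2 fold change -2.15, SE 0.30, adjusted p = 0.0054 in edgeR). KRT80 had 49.8 and 78.6 CPM in ABTr4 and 306 and 443 CPM in PEO1 (log2 fold change -2.54). KRT7 fell by 2.21 on the log2 scale, a call that ended without ABTr4 replicate 1 (log2 fold change -1.91, adjusted p = 0.068 in edgeR). The basal keratin KRT5 had 0 and 0.523 CPM in ABTr4, while PEO1 replicate 1 and replicate 2 differed widely at 205 and 8.98 CPM (log2 fold change -8.79, adjusted p = 0.044 in edgeR). VIM, the vimentin of mesenchymal cells (hg19 chr10:17270258-17279592, plus strand), had 38.7 and 60.4 CPM in ABTr4 and 2.60 and 0.735 CPM in PEO1, and rose 29.0-fold (log2 fold change 4.86, SE 0.64, adjusted p = 0.0045 in edgeR). The rise of VIM was 66.9-fold without PEO1 replicate 1 and 18.7-fold without PEO1 replicate 2. The antisense gene VIM-AS1 overlaps 30% of the VIM exons, and the library kit does not mark strand, so reads of both cannot be told apart. NES, the filament nestin, rose too (log2 fold change 4.86). Without ABTr4 replicate 1 or replicate 2 the count of falls was 3 and 4, and that of rises was 1 without ABTr4 replicate 1 and 1 without PEO1 replicate 2.

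Both ZEB factors, which repress CDH1, rose in ABTr4. Of 11 tested mesenchymal factors 36.4% passed without the block, against 9.71% of all tested genes. ZEB1 (hg19 chr10:31608101-31818742, plus strand) had 53.4 and 41.7 CPM in ABTr4 and 2.13 and 2.79 CPM in PEO1, a 19.4-fold rise (log2 fold change 4.28, SE 0.28, adjusted p = 0.00067 in edgeR). ZEB2 (hg19 chr2:145141942-145277958, minus strand) had 32.1 and 20.8 CPM in ABTr4 and 0.694 and 1.39 CPM in PEO1, a 25.7-fold rise (log2 fold change 4.69, SE 0.53, adjusted p = 0.0030 in edgeR). Both genes kept their call with each library left out. PRRX1, a homeobox factor of mesenchyme, had 5.51 and 7.51 CPM in ABTr4 and 1.36 and 0.774 CPM in PEO1 (log2 fold change 2.59, adjusted p = 0.013 in edgeR). FOXC1 went the other way, with 7.81 and 6.16 CPM in ABTr4 and 29.3 and 113 CPM in PEO1 (log2 fold change -3.34, adjusted p = 0.016 in edgeR). PRRX1 did not pass without ABTr4 replicate 2 or PEO1 replicate 2 (adjusted p = 0.063 in edgeR and 0.070), and FOXC1 did not without ABTr4 replicate 1, ABTr4 replicate 2 or PEO1 replicate 2 (0.081, 0.10 and 0.060). SNAI2 (log2 fold change 1.64), TWIST2 (1.29) and GLIS3 (3.42) passed only with the block, and SNAI1 (0.36) and TWIST1 (1.02) passed in neither fit. In all 3 of 11 tested factors rose and 1 fell, and with the block 6 rose, while without PEO1 replicate 1 and without the block 5 rose.

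ZEB1 and ZEB2 bind the E-box CACCTG, and the promoters of the epithelial genes were searched for it. The RefSeq promoter table (GRCh38.p14, 300 bases around the start of a gene) held 30 of the 54 tested genes of the 3 epithelial lists. CDH1 and EPCAM were among the genes without an entry, so their promoters were not searched. CACCTG or its reverse complement CAGGTG, searched on both strands, lay in 15 of these 30 promoters (50%), and 9 (30%) held it more than once. Of the 11535 tested genes with a promoter of that length 18.9% held it, and 2.65% more than once, while it lay in 3 of 22 promoters (13.6%) of the tested genes of the 2 mesenchymal lists. A match is a description of the letters, not of binding. The promoter of CRB3, which organises apical polarity, held the motif 5 times, the most among the 30. It is shown with those of AP1M2, a subunit of the epithelial clathrin adaptor with 3 matches, and RAB25, a small GTPase of apical recycling with 2, and capitals mark the motif on either strand.
CRB3, chr19:6464021-6464320, plus strand: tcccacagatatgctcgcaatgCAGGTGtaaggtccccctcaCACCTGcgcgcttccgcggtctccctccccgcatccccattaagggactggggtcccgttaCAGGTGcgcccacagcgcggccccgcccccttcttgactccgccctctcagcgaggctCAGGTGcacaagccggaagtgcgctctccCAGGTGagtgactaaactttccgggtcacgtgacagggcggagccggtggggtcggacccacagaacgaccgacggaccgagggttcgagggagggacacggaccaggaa
AP1M2, chr19:10587263-10587562, minus strand: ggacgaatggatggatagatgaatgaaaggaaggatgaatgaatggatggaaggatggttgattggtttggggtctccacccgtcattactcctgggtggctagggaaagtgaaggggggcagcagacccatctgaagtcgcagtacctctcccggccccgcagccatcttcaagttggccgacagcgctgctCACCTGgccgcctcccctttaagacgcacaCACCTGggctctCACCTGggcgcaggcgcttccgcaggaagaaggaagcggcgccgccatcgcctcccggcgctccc
RAB25, chr1:156060910-156061209, plus strand: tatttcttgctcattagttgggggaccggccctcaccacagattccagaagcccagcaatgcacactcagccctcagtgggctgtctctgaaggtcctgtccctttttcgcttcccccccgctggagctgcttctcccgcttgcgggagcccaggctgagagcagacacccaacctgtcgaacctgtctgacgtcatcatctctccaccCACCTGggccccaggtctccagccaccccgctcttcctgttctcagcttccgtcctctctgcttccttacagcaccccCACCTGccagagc
CRB3 had 0 and 0.185 CPM in ABTr4 and 12.3 and 21.9 CPM in PEO1. AP1M2 had 2.07 and 1.66 CPM in ABTr4 and 148 and 197 CPM in PEO1. RAB25 had 0.387 and 0.985 CPM in ABTr4 and 65.8 and 119 CPM in PEO1. In all 3 genes both ABTr4 libraries were far below both PEO1 libraries, which was not so for every gene with the motif. Of the 15 with it 11 fell without the block, ELF3 and TJP1 fell only with it, and GRHL3 (log2 fold change -0.52) and DSG2 (-0.35), each with 2 matches, passed in neither fit. Of the 15 promoters without the motif 10 belonged to genes that fell without the block, 4 to genes that fell only with it and 1 to a gene that passed in neither fit.

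Mesenchymal adhesion and matrix genes rose in smaller number than the epithelial genes fell. Of 24 tested 4 rose and 0 fell, with a median log2 fold change of 0.24, and with the block 8 rose and 2 fell. The share passing without the block was 16.7%, against 9.71% of all tested genes, of which 27.0% passed with it. CDH2, which encodes N-cadherin (hg19 chr18:25530930-25757445, minus strand), had 83.1 and 82.2 CPM in ABTr4 and 6.05 and 11.8 CPM in PEO1 (log2 fold change 3.22, SE 0.34, adjusted p = 0.0028 in edgeR). Scaled by exon length and depth (RPKM), the mean level was 18.9 for CDH2 and 0.0269 for CDH1 in ABTr4, against 2.04 for CDH2 and 52.4 for CDH1 in PEO1, so the order of the 2 cadherins was opposite in the clone and its parent. LOXL2, a collagen cross-linking oxidase, had 178 and 235 CPM in ABTr4 and 20.6 and 11.7 CPM in PEO1, a 12.7-fold rise. CDH4 rose 6.37-fold, and COL6A1, a collagen VI chain, rose 7.86-fold but did not pass without PEO1 replicate 2 (log2 fold change 2.53, adjusted p = 0.056 in edgeR), and its rise was 5.19-fold without ABTr4 replicate 2 and 12.1-fold without PEO1 replicate 1. FN1, the matrix protein fibronectin that is commonly counted as mesenchymal, had 374 and 2142 CPM in ABTr4 and 5749 and 4828 CPM in PEO1. It fell in the fit with the block (log2 fold change -2.29, adjusted p = 0.019 in edgeR) and did not pass without it (-2.07, adjusted p = 0.11 in edgeR). SPARC (-1.40) also fell with the block only, and COL1A1 (0.10), CDH11 (0.17), CD44 (0.24) and S100A4 (0.24) passed in neither fit, all given as log2 fold changes.

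Receptors for the matrix changed in both directions, with 5 of 30 tested integrins and laminins higher and 6 lower (6 and 11 with the block). The share passing without the block was 36.7%, against 9.71% of all tested genes, of which 27.0% passed with it. ITGB3, the beta chain of the vitronectin receptor, had 48.3 and 54.1 CPM in ABTr4 and 0.397 and 0.310 CPM in PEO1, a 142-fold rise (log2 fold change 7.15, SE 0.92, adjusted p = 0.0043 in edgeR). ITGB6, an epithelial integrin that activates TGF-beta, had 1.08 and 3.08 CPM in ABTr4 and 107 and 133 CPM in PEO1 (log2 fold change -5.87, SE 0.89, adjusted p = 0.0074 in edgeR). Both calls held with each library left out. ITGA5 (log2 fold change 2.13), LAMA1 (2.52), LAMA4 (1.12) and ITGA7 (2.29) rose, while LAMB3 (-2.79), LAMA3 (-2.25), LAMA5 (-1.67), ITGB8 (-4.51) and ITGB2 (-4.71) fell. The adjusted p of ITGA7 was 0.12 without ABTr4 replicate 2 and 0.11 without PEO1 replicate 2 in edgeR, and that of LAMB3 was 0.074 without ABTr4 replicate 1 and 0.056 without PEO1 replicate 2. The rises numbered 2, 1 and 1 and the falls 1, 2 and 2 without ABTr4 replicate 1, ABTr4 replicate 2 and PEO1 replicate 2, and the falls numbered 3 without PEO1 replicate 1.

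Of 28 tested matrix proteases and their inhibitors 4 rose and 0 fell (14.3% passed, against 9.71% of all tested genes). With the block 8 rose and 5 fell. MMP2, a gelatinase, had 8.97 and 27 CPM in ABTr4 (1294 reads) and 0.0248 and 0 CPM in PEO1 (1 read), a ratio of 1084, whose 95% counting interval ran from 194 to 42868. MMP2 passed in every setting run (adjusted p = 0.0043 in edgeR). ADAMTS5 had 43 reads in ABTr4 and 0 in PEO1, at least 12-fold higher, and ADAMTS12 rose 6.38-fold, or 15.3-fold without PEO1 replicate 1 and 4.09-fold without PEO1 replicate 2. MMP1, the interstitial collagenase, whose exons overlap those of WTAPP1 in part, had 30.3 and 6.65 CPM in ABTr4 and 0.0744 and 0.193 CPM in PEO1 (adjusted p = 0.048 in edgeR). The groups did not overlap, but the MMP1 call ended without any 1 of the 4 libraries (adjusted p = 0.14 in edgeR, 0.077, 0.17 and 0.19 without ABTr4 replicate 1, ABTr4 replicate 2, PEO1 replicate 1 and PEO1 replicate 2). Those of ADAMTS5 (0.073 to 0.097 over the same 4 libraries) and ADAMTS12 (0.11, 0.073 and 0.094 without ABTr4 replicate 1, ABTr4 replicate 2 and PEO1 replicate 2) also ended, so that MMP2 alone of the 4 remained without either ABTr4 library or PEO1 replicate 2. The inhibitors TIMP1 (log2 fold change 0.04), TIMP2 (-0.51), TIMP3 (-0.75) and TIMP4 (0.28) passed in neither fit. Kallikreins, secreted serine proteases of the serous tumour surface, fell in 5 of 6 tested genes. KLK6 had 12.7 and 8.10 CPM in ABTr4 and 225 and 283 CPM in PEO1 (log2 fold change -4.61, SE 0.31, adjusted p = 0.00067 in edgeR), and KLK5 had 0.323 and 2.06 CPM in ABTr4 and 214 and 579 CPM in PEO1 (log2 fold change -8.41, SE 1.01). KLK8 (-6.43), KLK10 (-4.81) and KLK7 (-3.51) followed, and KLK14 (0.24) did not pass. KLK8 lost its call without ABTr4 replicate 1 or replicate 2 (adjusted p = 0.067 in edgeR and 0.082) and KLK10 without ABTr4 replicate 1 or PEO1 replicate 2 (0.057 and 0.050), and 2, 3 and 3 members fell without ABTr4 replicate 1, ABTr4 replicate 2 and PEO1 replicate 2.

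The genes of largest change outside the lists given so far were of mixed function. INHBB, the activin B subunit, had 2 reads in ABTr4 and 36445 in PEO1 (321 and 910 CPM), a ratio of PEO1 to ABTr4 of 21743, whose 95% counting interval ran from 6019 to 179543, and was the largest fall among genes that passed in both fits with a mean of at least 5 CPM in the higher group. VGLL1, a cofactor of TEAD factors, had 2 reads in ABTr4 and 8970 in PEO1 (ratio 5351, interval 1481 to 44195). IL1R2, the decoy receptor of interleukin 1, had 0.043 and 0.0616 CPM in ABTr4 and 71.2 and 168 CPM in PEO1 (log2 fold change -11.10). SLC22A3, an organic cation transporter, had 0.129 and 0.0616 CPM in ABTr4 and 66.7 and 417 CPM in PEO1 (log2 fold change -11.20). MAL, a raft protein of apical membranes, had 0.108 and 0 CPM in ABTr4 and 314 and 685 CPM in PEO1 (log2 fold change -12.91). ALDH3B2, an aldehyde dehydrogenase, FXYD3, a regulator of the sodium pump, and CCDC64B had 0 reads in ABTr4 and were at least 344-fold, 544-fold and 252-fold lower. FXYD3 and CCDC64B did not pass without ABTr4 replicate 1 (adjusted p = 0.059 in edgeR and 0.055) or replicate 2 (0.056 and 0.051), nor did MAL without ABTr4 replicate 2 (0.056). The other 4 of these genes and ALDH3B2 kept their call with each library left out.

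Among the largest rises, VAT1L had 63.1 and 104 CPM in ABTr4 and 0.397 and 0.0774 CPM in PEO1, a 322-fold rise (log2 fold change 8.33, SE 0.72, adjusted p = 0.0018 in edgeR). WSCD1 had 39.4 and 15.1 CPM in ABTr4 and 0.198 and 0.271 CPM in PEO1 (log2 fold change 6.87), and both calls held with each library left out. The rise of VAT1L was 1035-fold without PEO1 replicate 1 and 207-fold without PEO1 replicate 2. EEF1A2, an elongation factor otherwise found in muscle and neurons, had 9.10 and 43.3 CPM in ABTr4 and 0.174 and 0.155 CPM in PEO1 (log2 fold change 7.27, adjusted p = 0.0065 in edgeR, and 0.051 without PEO1 replicate 2). In 3 further genes 1 ABTr4 library carried most of the reads. OPCML, a cell adhesion protein, had 9.68 and 0.616 CPM in ABTr4 (470 reads) and 0 reads in PEO1, at least 131-fold higher. SLCO2B1, an organic anion transporter, had 3.01 and 14.9 CPM in ABTr4 and 0 and 0.0774 CPM in PEO1 (ratio 261, 95% counting interval 72.0 to 2161). IL13RA2, a decoy receptor of interleukin 13, had 14 and 3.54 CPM in ABTr4 and 0.0744 and 0 CPM in PEO1 (ratio 213, interval 72.8 to 1037). The calls of SLCO2B1 and IL13RA2 ended without any 1 of the 4 libraries (adjusted p = 0.060 in edgeR to 0.15 and 0.072 to 0.20), and that of OPCML without ABTr4 replicate 1, PEO1 replicate 1 or PEO1 replicate 2 (0.13, 0.13 and 0.16). The log2 fold change of OPCML was 7.50 without ABTr4 replicate 1, and that of IL13RA2 was 11.38 without PEO1 replicate 1.

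Of 28 tested inflammatory genes of the NF-kB pathway 6 rose and 0 fell, with a median log2 fold change of 1.07. The share passing without the block was 21.4%, against 9.71% of all tested genes, of which 27.0% passed with it. With the block 11 members of the list rose, and CSF1, TNFAIP2 and LCN2 fell. IL1A and IL1B, the interleukin 1 ligands, had 63.8 and 36.1 CPM and 160 and 70.1 CPM in ABTr4, against 0.496 and 0.735 CPM and 0.298 and 0.155 CPM in PEO1. IL1A rose 81.9-fold (log2 fold change 6.36, SE 0.60, adjusted p = 0.0020 in edgeR) and IL1B rose 482-fold (8.91, SE 1.27, adjusted p = 0.0059 in edgeR), and their decoy receptor IL1R2 fell as given above. The chemokine CCL2 had 8.35 and 87.5 CPM in ABTr4 and 0.248 and 0.155 CPM in PEO1. CXCL3 rose 15.2-fold, the growth factor CSF2 rose with 1.89 and 7.48 CPM in ABTr4 and 0.0992 and 0 CPM in PEO1, and BIRC3, an inhibitor of cell death, rose 3.74-fold. The NF-kB subunits NFKB1 (log2 fold change 0.29), NFKB2 (0.30) and RELB (0.25) and the inhibitor NFKBIA (0.54) did not pass in either fit. Without PEO1 replicate 2 only IL1A of the 6 passed, and the edgeR adjusted p was 0.051 for IL1B, 0.20 for CCL2, 0.12 for CXCL3, 0.054 for CSF2 and 0.14 for BIRC3. Without ABTr4 replicate 1 the count was 3, with CCL2 at 0.052, CXCL3 at 0.083 and BIRC3 at 0.12. Without ABTr4 replicate 2 CCL2 was at 0.15 with a log2 fold change of 5.31, and without PEO1 replicate 1 CCL2 was at 0.14, BIRC3 at 0.066 and CSF2 had a log2 fold change of 10.45. IL1B rose 293-fold without ABTr4 replicate 1 and 731-fold without PEO1 replicate 1, and CXCL3 was 9.78-fold and 26.4-fold higher in these settings.

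Genes of interferon response and antigen presentation were near the background without the block. Of 36 interferon-stimulated genes 1 rose and 3 fell (11.1% passed, against 9.71% of all tested genes). With the block 9 rose and 8 fell, a larger share than the 27.0% of all tested genes. SAMD9, on chromosome arm 7q, had 26.3 and 32.0 CPM in ABTr4 and 72.6 and 103 CPM in PEO1 (log2 fold change -1.59, adjusted p = 0.011 in edgeR), IRF1 fell by 1.84 and USP18 by 1.19 on the log2 scale, and ISG20 rose by 1.52. None of the 4 passed without ABTr4 replicate 1 (adjusted p = 0.077 in edgeR, 0.17, 0.12 and 0.083) or replicate 2 (0.052, 0.063, 0.17 and 0.17). IRF1 and ISG20 did not pass without PEO1 replicate 2 (0.17 and 0.13), nor USP18 and ISG20 without PEO1 replicate 1 (0.11 and 0.11). Of 17 antigen presentation genes 1 fell, the peptide trimming enzyme ERAP1 (log2 fold change -1.83, adjusted p = 0.036 in edgeR), and 0 rose (2 and 2 with the block). It did not pass without ABTr4 replicate 1, ABTr4 replicate 2 or PEO1 replicate 2 (adjusted p = 0.14 in edgeR, 0.16 and 0.15), and its log2 fold change was -0.97 without the last.

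Lineage, hormone and growth factor genes changed in part. The share passing without the block was 18.2% in the serous lineage list and 18.2% in the estrogen response list. Of all tested genes 9.71% passed without the block and 27.0% with it. Among 11 serous lineage genes MECOM, a zinc finger oncogene, had 22.7 and 11.9 CPM in ABTr4 and 0.422 and 0.387 CPM in PEO1 and rose 42.3-fold (adjusted p = 0.0031 in edgeR). MUC16, the CA125 antigen, had 2 reads in ABTr4 and 2549 in PEO1 (20.7 and 66.4 CPM), a ratio of PEO1 to ABTr4 of 1521 (95% counting interval 421 to 12564). The MUC16 call ended without ABTr4 replicate 1, ABTr4 replicate 2 or PEO1 replicate 2 (adjusted p = 0.096 in edgeR, 0.081 and 0.062), while WT1 (log2 fold change -1.88) and PAX8 (-0.38) passed in neither fit and MSLN (-1.19) only with the block. With the block 3 members rose and 3 fell. ESR1, the estrogen receptor, had 0.172 and 0.339 CPM in ABTr4 and 94.2 and 123 CPM in PEO1 (log2 fold change -8.75, SE 0.61, adjusted p = 0.00067 in edgeR). Of 11 estrogen response genes 2 fell and 0 rose (7 and 0 with the block), and the other, PDZK1 (-4.13), did not pass without ABTr4 replicate 1, ABTr4 replicate 2 or PEO1 replicate 2 (adjusted p = 0.15 in edgeR, 0.15 and 0.17, the last with a log2 fold change of -1.86). Without PEO1 replicate 1 the count was 5.

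Of 22 growth factor receptors 4 rose and 5 fell (5 and 9 with the block). Without the block 40.9% passed, against 9.71% of all tested genes. FGFR1 had 127 and 95 CPM in ABTr4 and 9.32 and 2.90 CPM in PEO1 (log2 fold change 4.18, SE 0.64, adjusted p = 0.0075 in edgeR), while FGFR2 had 0.774 and 1.94 CPM in ABTr4 and 64.9 and 65.6 CPM in PEO1 (log2 fold change -5.60, SE 0.81, adjusted p = 0.0063 in edgeR). The 2 fibroblast growth factor receptors moved in opposite directions, with no overlap between groups. NRP1, a coreceptor of VEGF and semaphorins, had 163 and 111 CPM in ABTr4 and 11.4 and 6.42 CPM in PEO1, a 15.3-fold rise. NRP2 (log2 fold change 4.09) and IGF1R (3.16) rose, and ERBB3 (-3.79), ERBB2 (-1.41), MET (-1.25) and MST1R (-1.44) fell. IGF1R did not pass without ABTr4 replicate 2 (adjusted p = 0.052 in edgeR), and the falls numbered 2, 2 and 1 without ABTr4 replicate 1, ABTr4 replicate 2 and PEO1 replicate 2. AXL (0.88) and EGFR (-0.80, with the block only) did not pass without the block.

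In the TGF-beta, activin and BMP list 2 of 29 genes rose and 5 fell (4 and 9 with the block). Without the block 24.1% passed, against 9.71% of all tested genes. SMAD2, a signal transducer on chromosome arm 18q, had 46 and 51.9 CPM in ABTr4 and 151 and 178 CPM in PEO1 (log2 fold change -1.75, SE 0.25, adjusted p = 0.0061 in edgeR). SMAD7 (-2.95) and SMAD4 (-1.26), from the same arm, fell with it. INHBB, described above, belongs to this list and fell too. The ligand TGFB1 (2.08) and the receptor TGFBR2 (1.14) rose. LTBP1, which stores the ligand in the matrix, had 2.02 and 2.68 CPM in ABTr4 and 17.2 and 208 CPM in PEO1 (log2 fold change -5.58). It did not pass without ABTr4 replicate 1 or replicate 2 (adjusted p = 0.091 in edgeR and 0.088), and without PEO1 replicate 2 its log2 fold change was -2.89. The rises numbered 0 without ABTr4 replicate 1, ABTr4 replicate 2 or PEO1 replicate 2, and the falls 3 without either ABTr4 library. Of 21 Hippo and TEAD genes 4 fell and 0 rose (8 and 1 with the block). The share passing without the block was 19%, against 9.71% of all tested genes, of which 27.0% passed with it. VGLL1 was described above, and the kinase STK3 had 39.7 and 35.2 CPM in ABTr4 and 132 and 187 CPM in PEO1 (log2 fold change -2.09, SE 0.25, adjusted p = 0.0034 in edgeR). SAV1 (-1.17) and ANKRD1 (-3.45) also passed, but not without ABTr4 replicate 1 (adjusted p = 0.13 in edgeR and 0.17), ABTr4 replicate 2 (0.13 and 0.21) or PEO1 replicate 2 (0.084 and 0.33), and SAV1 not without PEO1 replicate 1 (0.066). ANKRD1 rested on PEO1 replicate 2, without which its log2 fold change was -1.16. YAP1 (0.23) and the TEAD targets CTGF (-0.77) and CYR61 (-0.82) passed in neither fit.

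Of 30 Wnt genes 3 rose and 6 fell (5 and 9 with the block). Without the block 30% passed, against 9.71% of all tested genes. The ligand WNT10A had 1 read in ABTr4 and 550 in PEO1 (ratio of PEO1 to ABTr4 656, 95% counting interval 117 to 25967), and WNT7A (log2 fold change -2.94) and WNT7B (-2.75) fell too. RNF43, which removes Wnt receptors, had 0.0861 and 0.123 CPM in ABTr4 and 2.55 and 5.88 CPM in PEO1. The receptor FZD4 (1.55) and the secreted inhibitors SFRP1 (2.13) and DKK1 (2.47) rose. RNF43 did not pass without ABTr4 replicate 1 (adjusted p = 0.053 in edgeR), nor SFRP1 without ABTr4 replicate 1, ABTr4 replicate 2 or PEO1 replicate 2 (0.068, 0.062 and 0.095). The rises numbered 1 and the falls 1, 3 and 2 without ABTr4 replicate 1, ABTr4 replicate 2 and PEO1 replicate 2.

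Of 115 tested genes in 5 DNA repair lists 8 passed (6.96%), against 9.71% of all tested genes, and with the block 23 passed (20%), against 27.0%. BRCA2 (hg19 chr13:32889617-32973809, plus strand) had 43.8 and 18 CPM in ABTr4 replicate 1 and 2 and 19 and 5.80 CPM in PEO1 replicate 1 and 2. The groups overlapped, and replicate 1 was the higher library in each. The log2 fold change reached 1.31 (SE 0.93, adjusted p = 0.43 in edgeR) without the block and 1.42 (SE 0.29, adjusted p = 0.0057 in edgeR) with it, and in the blocked fit BRCA2 did not pass without ABTr4 replicate 2 (adjusted p = 0.063 in edgeR). BRCA1 had 185 and 83.1 CPM in ABTr4 and 194 and 117 CPM in PEO1 (log2 fold change -0.22, SE 0.65). BRCA1 passed in no setting, and its sign changed on leaving out a library. Gene counts do not show whether the BRCA2 transcript encodes a working protein.

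Of 28 homologous recombination genes 3 rose and 1 fell (14.3% passed, against 9.71% of all tested genes). Their median log2 fold change was 0.22. With the block 6 rose and 1 fell, a share near the 27.0% of all tested genes. SFR1 and SWI5, which form an accessory complex of recombination, had 32.7 and 30.5 CPM and 34.7 and 26.8 CPM in ABTr4, against 11.4 and 8.36 CPM and 13.3 and 9.94 CPM in PEO1. SFR1 rose 3.20-fold (adjusted p = 0.021 in edgeR) and SWI5 rose 2.64-fold (adjusted p = 0.033 in edgeR). HELQ, a repair helicase, had 26.2 and 27.3 CPM in ABTr4 and 13.9 and 12.8 CPM in PEO1, a 2.00-fold rise (adjusted p = 0.044 in edgeR). SHFM1, which encodes the BRCA2 partner DSS1 and lies on chromosome arm 7q, had 45.2 and 43.1 CPM in ABTr4 and 113 and 110 CPM in PEO1 (log2 fold change -1.34, SE 0.22, adjusted p = 0.010 in edgeR). The groups did not overlap in these 4 genes, but none of the 4 passed without ABTr4 replicate 1 (adjusted p = 0.086 in edgeR for SFR1, 0.14 for SWI5, 0.13 for HELQ and 0.062 for SHFM1) or ABTr4 replicate 2 (0.081, 0.083, 0.18 and 0.073). Without PEO1 replicate 2 SFR1, SWI5 and HELQ were at 0.13, 0.17 and 0.17, and without PEO1 replicate 1 SWI5 and HELQ were at 0.053 and 0.090.

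**Figure D3:**
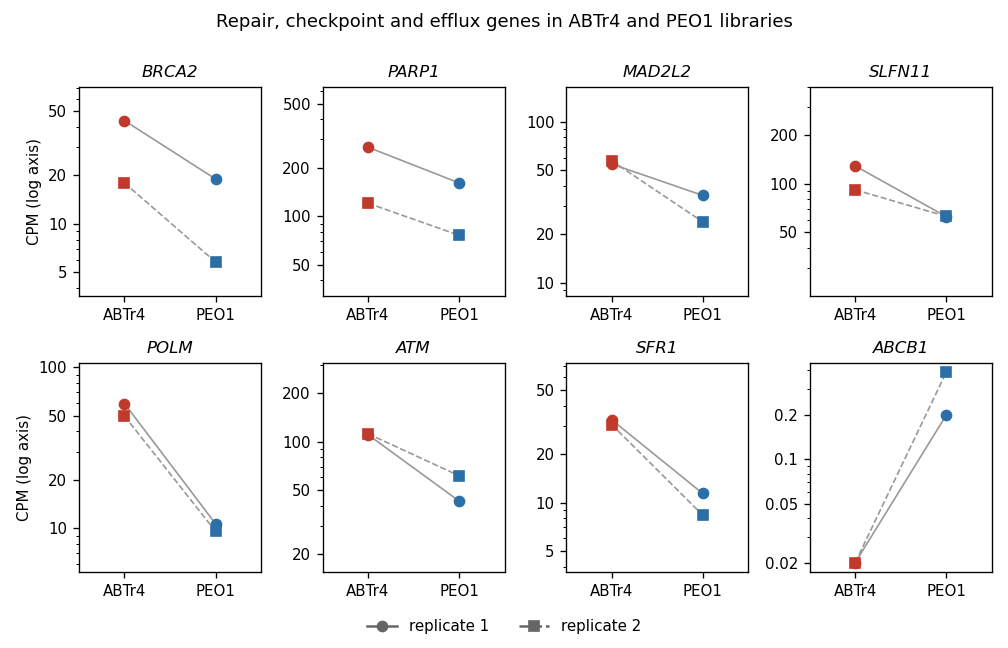
Each panel gives 1 gene in CPM on a log axis, with ABTr4 libraries in red and PEO1 libraries in blue, replicate 1 as circles and replicate 2 as squares, and lines joining libraries of the same number; the 0 CPM of ABCB1 in ABTr4 is drawn at 0.02. BRCA2 and PARP1 differ between replicate numbers about as much as between groups, while the 4 libraries of POLM fall into 2 separate groups.

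Of 21 genes of end protection and end joining 1 rose and 0 fell (3 and 1 with the block). Without the block 4.76% passed, against 9.71% of all tested genes. POLM, a polymerase of classical end joining, had 59.6 and 49.9 CPM in ABTr4 and 10.7 and 9.60 CPM in PEO1, a 5.40-fold rise (log2 fold change 2.43, SE 0.24, adjusted p = 0.0022 in edgeR) that passed in every setting run. MAD2L2, the REV7 subunit of shieldin, had 54.7 and 57.4 CPM in ABTr4 and 35 and 23.9 CPM in PEO1, a log2 fold change of 0.93 (adjusted p = 0.058 in edgeR without and 0.015 with the block), and it also passed in DESeq2. TP53BP1, the 53BP1 protein that protects ends from resection, had 98.9 and 95.3 CPM in ABTr4 and 89.7 and 69.4 CPM in PEO1 (log2 fold change 0.29, SE 0.23, adjusted p = 0.48 in edgeR). The DNA-dependent kinase PRKDC (-0.88) fell with the block only, and RIF1 (-0.28) passed in neither fit. Without PEO1 replicate 1 the count of rises was 2, with MAD2L2 the second.

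PARP1 (hg19 chr1:226548392-226595801, minus strand), the drug target, had 268 and 120 CPM in ABTr4 and 161 and 76.0 CPM in PEO1. Within each replicate number ABTr4 was the higher library, and the log2 fold change reached 0.71 (SE 0.50, adjusted p = 0.43 in edgeR) without and 0.70 (SE 0.25, adjusted p = 0.062 in edgeR) with the block, which was 0.039 without PEO1 replicate 1. PARG, which removes the polymer that PARP1 makes, had 59.7 and 43.9 CPM in ABTr4 and 44.8 and 47.5 CPM in PEO1 (log2 fold change 0.17, SE 0.25), and the groups overlapped. Of 26 genes of the PARP family and single-strand repair 1 rose and 1 fell (7.69% passed, against 9.71% of all tested genes). APLF, an end joining factor that binds the polymer, had 12.8 and 13.9 CPM in ABTr4 and 3.67 and 3.56 CPM in PEO1, a 3.69-fold rise (adjusted p = 0.017 in edgeR). PARP8 had 16.1 and 13.3 CPM in ABTr4 and 32.5 and 56.3 CPM in PEO1 (log2 fold change -1.59, adjusted p = 0.016 in edgeR). Neither passed without ABTr4 replicate 1 (adjusted p = 0.065 in edgeR and 0.069), ABTr4 replicate 2 (0.081 and 0.11) or PEO1 replicate 2 (0.084 and 0.070), and APLF did not without PEO1 replicate 1 (0.052).

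Of 23 fork and checkpoint genes 1 rose and 0 fell (4.35% passed, against 9.71% of all tested genes), and with the block 5 rose. ATM, the kinase that senses double-strand breaks, had 111 and 112 CPM in ABTr4 and 42.8 and 61.4 CPM in PEO1, a 2.14-fold rise (adjusted p = 0.031 in edgeR). It did not pass without any 1 of the 4 libraries (adjusted p = 0.11 in edgeR, 0.12, 0.11 and 0.051 without ABTr4 replicate 1, ABTr4 replicate 2, PEO1 replicate 1 and PEO1 replicate 2). SLFN11, whose loss is known to go with resistance to PARP inhibitors, had 129 and 91.8 CPM in ABTr4 and 62.6 and 62.8 CPM in PEO1. Both ABTr4 libraries were the higher ones, with a log2 fold change of 0.82 (adjusted p = 0.13 in edgeR) without and 0.79 (adjusted p = 0.016 in edgeR) with the block. HLTF (log2 fold change 0.97), ETAA1 (0.89) and CXorf57 (1.72) passed with the block only. Of 18 Fanconi anemia genes 0 passed without the block, and SLX4 (0.92), ERCC4 (0.73) and FANCA (1.05) rose with it.

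ABC transporters pump drugs and lipids out of cells. ABCB1 (hg19 chr7:87133179-87342639, minus strand), the multidrug pump that exports several PARP inhibitors, had 0 reads in ABTr4 and 18 reads in PEO1 (0.198 and 0.387 CPM), at least 7.16-fold lower in ABTr4 (adjusted p = 0.020 in edgeR). The call ended without ABTr4 replicate 1, ABTr4 replicate 2 or PEO1 replicate 2 (adjusted p = 0.094 in edgeR, 0.081 and 0.073), and the level was very low in both groups. ABCG2 (log2 fold change 1.01) passed in neither fit. ABCA1, a cholesterol exporter, had 17.6 and 36.4 CPM in ABTr4 and 8.31 and 8.51 CPM in PEO1 (3.21-fold, adjusted p = 0.028 in edgeR), ABCC10 rose 2.41-fold and ABCC2 rose 2.97-fold. In all 3 of 23 tested transporters rose and 1 fell (17.4% passed, against 9.71% of all tested genes). With the block 7 rose and 5 fell. None of the 3 rises held without ABTr4 replicate 2 (adjusted p = 0.16 in edgeR, 0.18 and 0.15) or PEO1 replicate 2 (0.12, 0.15 and 0.14), ABCC10 and ABCC2 did not without ABTr4 replicate 1 (0.060 and 0.095), and ABCA1 and ABCC2 did not without PEO1 replicate 1 (0.086 and 0.064). The log2 fold change of ABCA1 was 1.07 without ABTr4 replicate 2.

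Of 25 tested amino acid supply genes under ATF4, the factor of the integrated stress response, 6 fell and 0 rose. Their median log2 fold change was -1.85, and with the block 15 fell and 1 rose. The share passing without the block was 24%, against 9.71% of all tested genes, of which 27.0% passed with it. SLC7A5 and SLC3A2, the 2 chains of a leucine transporter, had 247 and 135 CPM and 146 and 79.9 CPM in ABTr4, against 998 and 2024 CPM and 344 and 721 CPM in PEO1. ASNS, the asparagine synthetase on chromosome arm 7q, had 20.03 and 34.2 CPM in ABTr4 and 82.6 and 486 CPM in PEO1 (log2 fold change -3.39, SE 0.81, adjusted p = 0.034 in edgeR). SLC38A2 (-2.04), STC2 (-3.14) and SLC7A11 (-2.79) fell as well, and ATF4 itself (-0.31) passed in neither fit. In these genes PEO1 replicate 2 was the highest of the 4 libraries, and without it 0 of the list passed, with log2 fold changes of -2.40, -1.62, -1.63 and -1.22 for SLC7A5, SLC3A2, ASNS and SLC38A2. Without ABTr4 replicate 1 or replicate 2 the count was 0 and 1, and without PEO1 replicate 1 it was 12.

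Of 23 cholesterol synthesis genes 2 fell and 0 rose (10 and 0 with the block). The share passing without the block was 8.7%, against 9.71% of all tested genes, of which 27.0% passed with it. CYP51A1, a demethylase of the pathway on chromosome arm 7q, had 54.7 and 41.5 CPM in ABTr4 and 168 and 291 CPM in PEO1 (log2 fold change -2.25, SE 0.32, adjusted p = 0.0058 in edgeR). The count of falls was 1 without ABTr4 replicate 1, ABTr4 replicate 2 or PEO1 replicate 2. In the list of the BCL2 family and other genes of cell death 1 of 19 rose and 2 fell (3 and 4 with the block). The share passing without the block was 15.8%, against the same 9.71%. The riser was BIRC3, the inhibitor of cell death given above (log2 fold change 1.90), which is not a BCL2 family member. BID, which links death receptors to mitochondria, had 48.7 and 40.3 CPM in ABTr4 and 133 and 134 CPM in PEO1 (log2 fold change -1.58, SE 0.25, adjusted p = 0.0083 in edgeR, and 0.066 without ABTr4 replicate 2). HRK, another promoter of cell death, fell by 2.87 on the log2 scale but did not pass without ABTr4 replicate 1, ABTr4 replicate 2 or PEO1 replicate 2 (adjusted p = 0.14 in edgeR, 0.086 and 0.13), and its log2 fold change was -1.86 without the last.

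Genes of cell growth did not pass without the block, in which 9.71% of all tested genes passed. Of 31 replication, 24 mitosis, 25 translation termination and decay and 42 ribosomal protein genes 0 passed. With the block 27.0% of all tested genes passed. In these lists 4 rose and 1 fell with it, 2 rose and 0 fell, 1 rose and 3 fell, and 1 rose and 8 fell, in that order. Their medians without the block were 0.20, 0.13, -0.16 and -0.27 on the log2 scale. ETF1, the release factor that ends translation, on chromosome arm 5q, had 172 and 112 CPM in ABTr4 and 281 and 225 CPM in PEO1, and fell with the block only (log2 fold change -0.85, adjusted p = 0.0075 in edgeR). RPS23, on 5q, fell by 1.11 and RPL13, on 16q, rose by 0.76 on the log2 scale with the block.

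**Figure D4:**
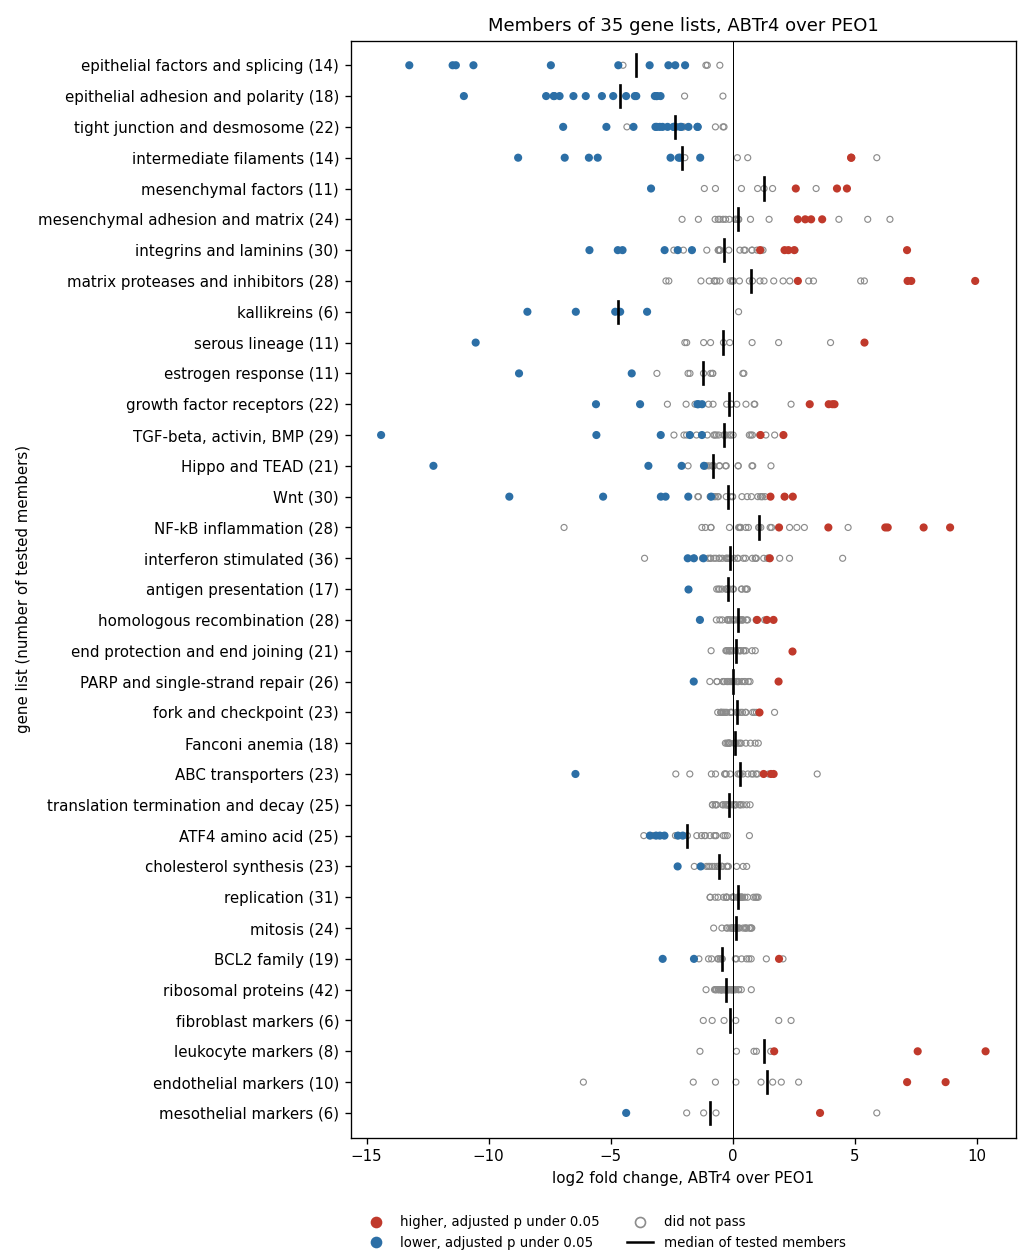
Each row is 1 gene list with its number of tested members, and each point is the log2 fold change of a member in ABTr4 over PEO1 without the block, red where it was higher and blue where it was lower at an edgeR adjusted p under 0.05, open where it did not pass, with a black bar at the median. The epithelial lists and kallikreins lie far to the left, and the lists of repair, replication and mitosis lie close to 0.

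Markers of other cell types were examined, since some genes usual in blood or vessel cells rose. Of 8 tested leukocyte markers 3 rose and 0 fell (37.5% passed, against 9.71% of all tested genes). HCLS1, a signalling adaptor of blood cells, had 49.5 and 30.3 CPM in ABTr4 and 0.124 and 0.310 CPM in PEO1, a 192-fold rise (adjusted p = 0.0010 in edgeR) that was 128-fold without PEO1 replicate 1 and 311-fold without PEO1 replicate 2. LAPTM5, a lysosomal protein of leukocytes, had 370 reads in ABTr4 and 0 in PEO1, at least 103-fold higher, and the lysosomal CD68 rose 3.26-fold. The CD68 call ended without ABTr4 replicate 1, PEO1 replicate 1 or PEO1 replicate 2 (adjusted p = 0.076 in edgeR, 0.050 and 0.072). The summed level of all 14 leukocyte markers was 127 to 191 CPM in ABTr4 and 42.0 to 54.2 CPM in PEO1, and 4 markers had 0 reads in all 4 libraries. The defining genes were near 0, with PTPRC at 0 reads in ABTr4 and 4 in PEO1, CD3E at 2 and 0, and CD3D, FCGR3A and TYROBP at 0 in both ABTr4 libraries. Of 10 tested endothelial markers 2 rose and 0 fell (5 and 1 with the block), FLI1 with 384 reads in ABTr4 and 2 in PEO1 (ratio 161, 95% counting interval 44.2 to 1334) and TIE1 with 109 and 0 reads (at least 30.5-fold higher). TIE1 did not pass without any 1 of the 4 libraries (adjusted p = 0.065 in edgeR to 0.090). The summed level of the 12 endothelial markers was 21.4 to 25.9 CPM in ABTr4 and 26 to 67.5 CPM in PEO1, and CDH5 had 39 reads in ABTr4 and 2180 in PEO1.

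The 12 fibroblast markers summed to 179 to 190 CPM in ABTr4 and 156 to 244 CPM in PEO1. The fibroblast markers DCN, LUM, COL3A1 and DPT had 0 reads in all 4 libraries, and of 6 tested 0 passed without the block, while PDGFRB and ACTA2 rose and FBLN1 fell with it. The 8 mesothelial markers summed to 51.5 to 92.9 CPM in ABTr4 and 104 to 225 CPM in PEO1, and 1 had 0 reads in all 4 libraries. UPK3B, on chromosome arm 7q, fell (log2 fold change -4.36, adjusted p = 0.0038 in edgeR) and LRRN4 rose (3.58, adjusted p = 0.034 in edgeR), with 2 and 2 members with the block. LRRN4 did not pass without ABTr4 replicate 1, ABTr4 replicate 2 or PEO1 replicate 2 (adjusted p = 0.095 in edgeR, 0.095 and 0.070), and its log2 fold change was 6.43 without PEO1 replicate 1. The part of these 4 sets of markers in the other results was not tested.

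Expression differed by chromosome arm. On arm 18q the median log2 fold change of 174 tested genes was -0.82, against 0.04 for all tested genes, and it was -0.85 in the replicate 1 pair and -0.65 in the replicate 2 pair. On 5q (641 genes) it was -0.49, on 7q (538 genes) -0.47 and on 19q (655 genes) -0.27. Arm 16q (328 genes) was higher at 0.63, with 0.52 in the replicate 1 pair and 0.68 in the replicate 2 pair, and 5p, 18p, 17p, 20p and 10p had medians of 0.40, 0.34, 0.33, 0.32 and 0.31. With 2 libraries against 2 no exact permutation test over samples can reach 0.05, so the medians are given as a description. ABTr4 and the other clones share the PEO1 libraries as their control, so ABTr4 was set directly against the mean of the other 3 clones. In that comparison the medians of 18q, 5q, 16q and 7q were -0.01, 0.02, 0.17 and -0.33, and those of Xp, 3p and 5p were -0.30, -0.30 and 0.30. As median differences of mean log2 CPM from PEO1, Xp was at -0.05 in ABTr4 and at 0.26, 0.23 and 0.24 in ABTr1, ABTr2 and ABTr3. Arm 3p was at -0.17 in ABTr4 and at 0.21, 0.07 and 0.09 in these clones. Arm 5p was at 0.37 in ABTr4 and at -0.11, 0.44 and -0.12 in them, so ABTr2 was higher there than ABTr4.

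**Figure D5:**
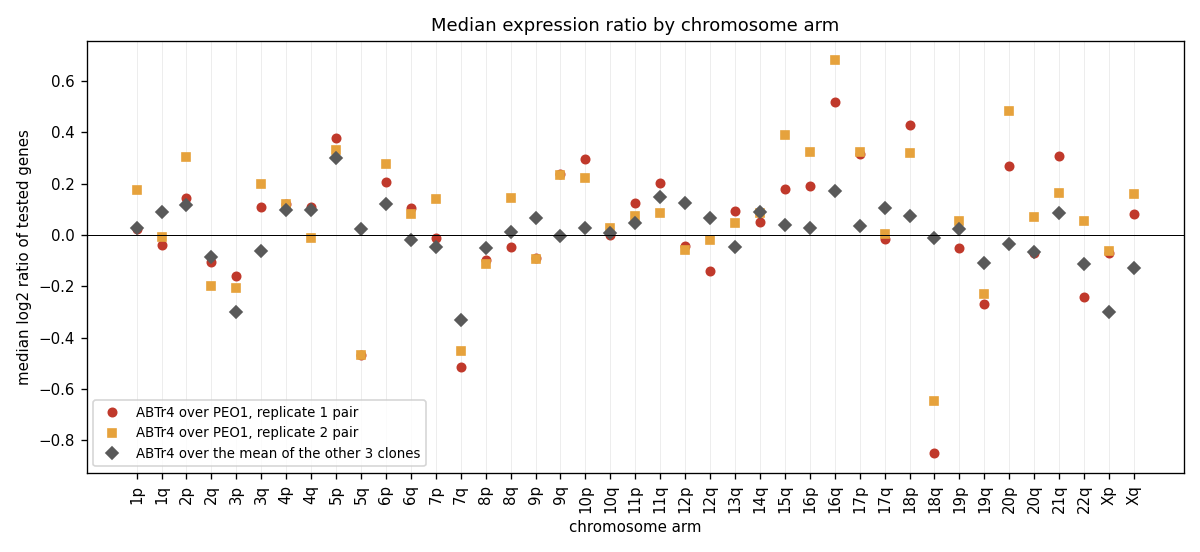
For each chromosome arm with at least 30 tested genes, the y axis gives the median log2 ratio of ABTr4 over PEO1 in the replicate 1 libraries (red circles) and the replicate 2 libraries (orange squares), and of ABTr4 over the mean of the other 3 clones (grey diamonds). Arms 18q, 5q and 7q lie lowest and 16q highest against PEO1, and 7q is the lowest arm against the other clones.

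The shortfall on 7q lay in the part of the arm nearer the centromere. Between 60 and 130 Mb (hg19), 375 tested genes had a median log2 fold change of -0.72 against PEO1 and -0.56 against the mean of the other clones, and 333 of them were lower than in the other clones. Between 90 and 100 Mb the medians were -0.96 and -0.79. Between 140 and 160 Mb, 116 genes had medians of 0.23 and 0.35. ABCB1, ASNS, CYP51A1, SAMD9, SHFM1, CLDN4 and UPK3B, which fell against PEO1, lie on this arm.

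In the test of ABTr4 against the mean of ABTr1, ABTr2 and ABTr3, 0 genes passed without the block (0%) in edgeR, with 861 at an unadjusted p under 0.05, and 158 passed in DESeq2 and 0 in limma-voom. With the block 90 passed (0.546%), of which 6 were higher (0.0364%) and 84 lower (0.509%) in ABTr4, and 29 of the 84 (34.5%) lay on 7q, which holds 3.26% of the tested genes. With the block and without ABTr4 replicate 1 no gene passed, and without ABTr4 replicate 2 the number was 11. The genes named here were chosen after their values were seen. LSR, a lipoprotein receptor at 3-cell junctions, had 2.02 and 3.29 CPM in ABTr4, against means of 26.1, 31.9 and 21.2 CPM in ABTr1, ABTr2 and ABTr3 and 119 and 127 CPM in PEO1 (log2 difference from the other clones -3.30, adjusted p = 0.0076 in edgeR with the block). SPOCK2, a matrix proteoglycan, had 19.1 and 32.8 CPM in ABTr4, means of 331, 478 and 224 CPM in the other clones and 979 and 3215 CPM in PEO1 (-3.67, adjusted p = 0.0042 in edgeR with the block). In both genes the other clones lay between ABTr4 and PEO1. ABCB1 had 0 reads in ABTr4 and means of 1.13, 1.44 and 0.734 CPM in the other clones. VIM had 38.7 and 60.4 CPM in ABTr4 and means of 380, 95.5 and 63.8 CPM in the other clones, a difference that did not pass (log2 difference -1.42, adjusted p = 0.16 in edgeR with the block).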

How the data were processed

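Polyadenylated RNA was sequenced with an unstranded kit, per the labels' protocols. The authors deposited counts per gene, and per the submitters' processing notes TopHat2 2.0.14, featureCounts 1.4.6 of Subread and hg19 were used; how reads with several matches were counted is not given in the sources used here. Counts of paralogs, antisense and overlapping genes are uncertain. The series' design text speaks of independent experiments and of more samples than the 10 libraries analysed here, and the labels tie no replicate number to an experiment or culture, so p-values measure only the spread between these libraries, and none was a copy of another.

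The edgeR 4.0.16 expression filter kept 16490 genes. TMM factors and quasi-likelihood tests used a mean per group over all 10 libraries (5 residual degrees of freedom), with Benjamini-Hochberg adjustment. CPM used the same factors. Each SE was derived from the test, as the absolute log2 fold change over the square root of the F value. The replicate number was a block in a second fit (4 degrees of freedom). In every group the replicate 1 library held more counts than the replicate 2 library, so number and depth cannot be told apart. Libraries sharing a number deviated together, with correlations of 0.28 to 0.731 over the 10 group pairs, above the set 0.1, and the pairing comes from the numbers in the library titles. Biological variation (edgeR coefficient) came to 0.368 in the unblocked and 0.234 in the blocked fit. For 0 reads, folds are bounds at 3 counts over the group.

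The 35 lists shown by row in the plot of list members held 777 entries, of which 775 matched, 12 of them by another symbol, and 730 were tested. Members, lists and tests were chosen with earlier results of these data known. Genes named were BRCA2, BRCA1, PARP1, PARG, TP53BP1, MAD2L2, SLFN11, ABCB1, CDH1 and VIM, the 12 largest rises and falls passing in both fits with a mean of at least 5 CPM in the higher group, up to 4 members of each list of smallest adjusted p, and the 5 of smallest adjusted p passing only with the block. Some of the genes so chosen, and 1 further list, are not reported here. Other members of the lists are named with their values after these were seen. The rule also named genes that set ABTr4 apart from the other clones in the fit without the block, and none did. Alternatives were DESeq2 1.42.0, limma-voom (limma 3.58.1), RLE factors, no filter, only the compared groups and each library left out, and, chosen after seeing the data, the last with the block. Simulated data served to test the scripts, which ran in R 4.3.3 and Python 3.11.15 with figures from matplotlib 3.10.9.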

Additional observations from a re-analysis of the deposited data

Results flagged for a closer look

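ABTr4 differed from the mean of the other 3 clones in 90 genes in the edgeR fit with the replicate block, and since PEO1 cancels in that contrast it is also the difference between the clones' changes from their parent. The following genes had the largest differences among those that also passed with the same sign against PEO1 with the block, and were chosen after their values were seen. The log2 difference was -8.58 for FAM83F, with 0 reads in ABTr4, so that the fitted value is no bound. It was -3.67 for SPOCK2, -3.30 for LSR, -3.09 for FN1, -2.87 for GALNT3 and -2.80 for ID4. It was 2.71 for SCART1 and 0.95 for LRRC61, which lies in the distal part of 7q. None of these 8 genes passed without the block in edgeR, and none of the 90 calls was left in the blocked fit without ABTr4 replicate 1.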

How the results depend on the processing

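Without the block 1602 genes passed between ABTr4 and PEO1. The count was 4450 with the replicate block, 3118 in DESeq2, 1553 in limma-voom, 438 with only the compared groups, 2275 with only those groups and the replicate block, 1603 with RLE factors and 1756 with no filter. It ran from 459 to 1573 with each library left out, and from 1877 to 5042 when the block was kept, with 3274 without PEO1 replicate 2. ABTr4 against the other clones gave 0 genes, 90 with the replicate block, 158 in DESeq2, 0 in limma-voom, 1 with no filter, 568 with only the clones and the replicate block, and 0 to 11 with the block and 1 ABTr4 library left out. Of 172 named genes 112 passed, and 52 of these passed in each of the 15 settings, while 60 lost the call in at least 1. The block ended no call and added 45, of which those that matter are given in the text, and it changed no other call. Signs changed for 3 genes that passed in none of these settings, and the cause was not tested. With each library left out, the log2 fold change ran from -0.91 to 0.25 for BRCA1, from -0.072 to 0.37 for PARG and from -3.27 to 0.13 for FAP. With the block kept, PARG had -0.019 without ABTr4 replicate 1 and -0.00961 without PEO1 replicate 1. Where 1 library of a group is left out, the other is assumed to vary like the rest. With 2 libraries a group, the spread between libraries limits the tests.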
